A study of Sus scrofa domesticus with 150 samples.

Results

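The edge of skin wounds on day 11 after wounding was compared with unwounded skin of the same study. The day 11 edge group holds 6 of the 150 samples of the series and was chosen by the day and location in the sample labels. They came from wound C and wound J of animals 1, 2 and 3, so each animal gave 2 wounds. The unwounded group holds the 6 samples of day 0, 1 from each of animals 1 to 6. All animals were female domestic pigs of a Yorkshire mix. They carried full-thickness circular excisional wounds on the back, covered with Telfa Clear and Tegaderm, and biopsy sites were treated with an antibiotic ointment. A day 0 sample was the whole piece of skin that was cut out to make a wound. A day 11 sample was a punch biopsy that included the margin of the wound, so the groups differ in how the tissue was taken as well as in wounding, and these cannot be told apart. The labels do not give the back position of the day 0 samples.

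A skin wound heals as keratinocytes move in from the margin and rebuild the epidermis, while fibroblasts, new vessels and immune cells fill the defect below. Keratinocytes at a wound margin switch on keratins and defence proteins that resting epidermis makes little of. Fibroblasts first lay down a provisional matrix and then a collagen matrix, and hair follicles and glands cut out with the skin are not replaced at once.

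Total counts were 15698806 to 21415735 in the day 0 samples and 13955999 to 24895572 in the day 11 edge samples. CPM are counts scaled to a common library size with TMM factors. Pearson's r of log2(CPM + 1) was taken over the 15577 genes tested against day 0 skin. It was 0.924 to 0.984 between day 0 samples, 0.963 to 0.987 between day 11 edge samples and 0.881 to 0.934 between the groups. The day 0 sample of animal 2 stood apart from the other day 0 samples, with r of 0.924 to 0.953 to them, while the other 5 ranged from 0.971 to 0.984. The mean of log2(CPM + 1) over the hair follicle list was 1.79 in that sample and 4.94 to 7.62 in the other 5. At the day 11 edge, wound C of animal 2 stood apart on the same list with 3.43, against 0.767 to 0.970 in the other 5 samples. For some lists the count of called members is also given without these libraries. The same 5 genes held the largest share of counts in both groups, namely the collagens COL1A1, COL3A1 and COL1A2 and the epidermal keratins KRT10 and KRT1, which are defining genes of dermis and epidermis.

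Of 15577 genes tested, 2856 (18.3%) were higher and 2659 (17.1%) were lower at the day 11 edge than in day 0 skin. The test was edgeR's quasi-likelihood test on the counts of an animal's 2 wounds summed (3 animals against 6), with a call at a Benjamini-Hochberg adjusted p below 0.05. With the animal as a block, which kept only animals 1 to 3 in both groups, 1991 genes were higher and 1327 lower. The same animals without a block gave 2389 higher and 1969 lower. Block counts against day 0 skin thus differ from the main fit in the day 0 animals used as well as in the pairing. The median log2 fold change over all genes was -0.03. With library totals in place of TMM factors this median was -0.15, and the share of called genes that were higher went from 51.8% to 38.7%. All 6 edge values lay above all 6 day 0 values for 2178 genes (14% of those tested) and below them for 1496 genes (9.6%). These are bulk tissue counts, in which fewer cells of a type and less RNA per cell cannot be told apart. Gene lists for skin compartments, matrix, signalling and immune cells are described by counts of called members and the median log2 fold change, to be read beside 18.3%, 17.1% and -0.03. For lists below with 0 called members in a direction by edgeR against day 0 skin, DESeq2 and an unadjusted p below 0.05 also gave 0. The exceptions were skeletal muscle (1 with an unadjusted p below 0.05) and erythrocytes (1 lower by both). These counts rest on the same genes, those that passed a filter on low counts, and are not independent checks. A member that passed this filter only through 1 group could hardly be called higher in the other.

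**Figure D1:**
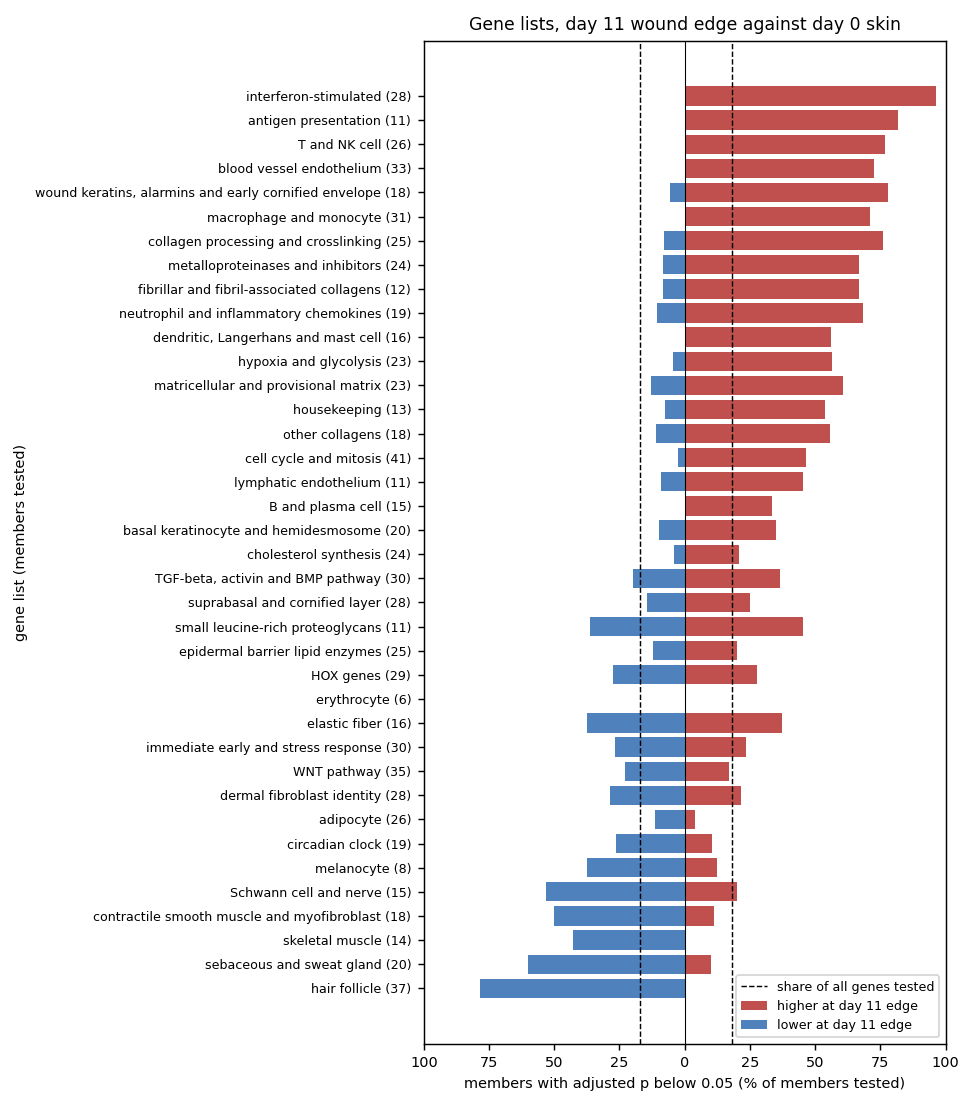
Share of tested members of each gene list that were higher (right) or lower (left) at the day 11 edge than in day 0 skin at an adjusted p below 0.05, in percent, with the number tested in brackets. The dashed lines mark the shares over all genes, 18.3% higher and 17.1% lower. The interferon list had 27 of 28 members higher and the hair follicle list 29 of 37 lower.

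The genes with the largest log2 fold changes included 3 calcium-binding proteins of the S100 family. S100A9 (gene ENSSSCG00025058500), a subunit of the antimicrobial protein calprotectin, was at 0.863 to 4.29 CPM (median 2.24) in day 0 skin and 452 to 2768 CPM (median 2308) at the day 11 edge (log2 fold change 9.58 ± 0.51 (SE), adjusted p = 3.02e-06). Its partner subunit S100A8 was at 0.641 to 3.17 CPM (median 1.79) in day 0 skin and 172 to 1104 CPM (median 793) at the edge (log2 fold change 8.45 ± 0.46 (SE), adjusted p = 3.02e-06). S100A12, a related calcium-binding alarmin, was at 0.902 to 7.32 CPM (median 4.08) and 252 to 1556 CPM (median 1223) in the same order (log2 fold change 7.78 ± 0.55 (SE), adjusted p = 1.09e-05). All 3 were selected by a rule that required no overlap between the groups, so their separation is no separate result. They are neighbours on 1 assembly contig, with starts at 172539, 184344 and 200880 for S100A9, S100A12 and S100A8. Neutrophils also carry these proteins in quantity, and the neutrophil receptor gene CSF3R was at 1.19 to 4.94 CPM (median 2.13) in day 0 skin and 6.46 to 43.4 CPM (median 12) at the edge. In the day 11 wound center CSF3R had a median of 135 CPM and S100A9 one of 103 CPM, and the part of neutrophils in the S100 levels was not tested.

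The other genes that rose and were selected by rule have various roles. LPO, the antimicrobial lactoperoxidase, was at 0 to 0.92 CPM (median 0.0611) in day 0 skin and 21.9 to 98.7 CPM (median 64.2) at the edge (log2 fold change 8.12 ± 0.66 (SE), adjusted p = 2.50e-05). TMPRSS11B, a membrane serine protease of squamous epithelia, was at 0.0519 to 0.637 CPM (median 0.329) and 9.08 to 96.4 CPM (median 62.3) (log2 fold change 7.37 ± 0.42 (SE), adjusted p = 3.02e-06). Its family member TMPRSS11G, on the same contig, had no count in any day 0 library and 0.369 to 54.8 CPM (median 6.54) at the edge. Against a floor of 3 counts per library (0.164 CPM), the edge median was at least 39.8-fold higher. AOX4, an aldehyde oxidase, had 1 count in 1 of the 6 day 0 libraries and 1.38 to 25.3 CPM (median 8.03) at the edge. The trypsin-like PRSS35 was at 0.371 to 2.67 CPM (median 2.05) in day 0 skin and 117 to 298 CPM (median 249) at the edge (log2 fold change 6.92 ± 0.37 (SE), adjusted p = 3.02e-06). LPO, the 2 proteases of the TMPRSS11 family and AOX4 were at or near the detection limit in day 0 skin. CXCL8, the neutrophil chemoattractant, was at 0 to 0.55 CPM (median 0.101) and 2.73 to 71.8 CPM (median 17.8) (log2 fold change 7.62 ± 0.63 (SE), adjusted p = 2.92e-05). IL36A, an epithelial cytokine that 2 genes of the table carry as a name, was at 0 to 0.39 CPM (median 0.0899) and 3.83 to 67.4 CPM (median 9.07) in the gene with more counts. SAA2, an acute-phase protein, was at 0.0519 to 0.481 CPM (median 0.277) in day 0 skin and 3.58 to 591 CPM (median 9.55) at the edge. Its highest edge value came from wound C of animal 2, and the other 5 edge samples lay between 3.58 and 71.6 CPM. GPRL15, named by its protein match, was at 0 to 0.425 CPM (median 0.178) and 10.8 to 99.2 CPM (median 50.3) (log2 fold change 7.90 ± 0.49 (SE), adjusted p = 5.86e-06). The names TMPRSS11B and GPRL15 are each carried by 2 genes of the table, and only the gene selected by rule is given. The rule selected only genes whose groups did not overlap.

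**Figure D2:**
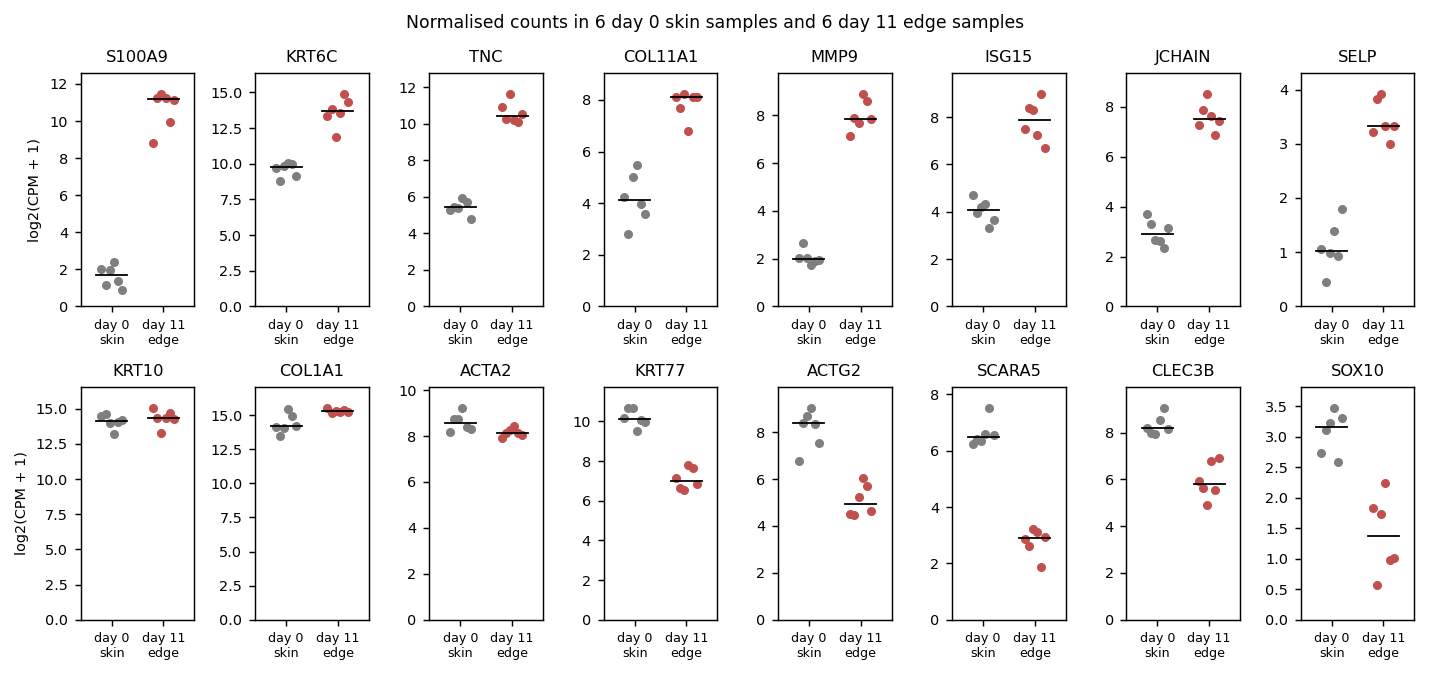
log2(CPM + 1) of 16 genes in the 6 day 0 skin samples (grey) and the 6 day 11 edge samples (red), with a bar at the median. KRT6C, TNC, MMP9 and ISG15 do not overlap between groups and are higher at the edge, as is S100A9, selected by a rule that required this. KRT10, COL1A1 and ACTA2 were not called, and KRT77, ACTG2, SCARA5, CLEC3B and SOX10 were lower.

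Most keratins and alarmins of the wounded epidermis rose. Of 18 tested members of the list of wound keratins, alarmins and early cornified envelope, 14 were higher and 1 lower, with a median log2 fold change of 2.36, and 9 were higher when all 4 groups of day 0, day 7 and day 11 shared 1 fit. KRT6C, a keratin of activated keratinocytes, was at 445 to 1038 CPM (median 877) in day 0 skin and 3819 to 29590 CPM (median 13292) at the edge (log2 fold change 4.19 ± 0.38 (SE), adjusted p = 4.81e-05). Its relative KRT6B, which may share reads with it, had a log2 fold change of 3.06. KLK8, a kallikrein protease of the upper epidermis, was at 5.51 to 27.4 CPM (median 10.3) and 81 to 196 CPM (median 151) (log2 fold change 3.48 ± 0.40 (SE), adjusted p = 1.66e-04). No edge sample of KRT6C or KLK8 reached down to the day 0 range. On the per-length scale of the deposited FPKM, the edge medians were 6091 for KRT6C and 10002 for KRT10, the keratin of differentiating keratinocytes, against 409 and 8744 in day 0 skin.

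The shares of differentiation and barrier genes called were near those over all genes. Of 28 suprabasal and cornified layer genes, 7 were higher and 4 lower (median 0.25). The count of 7 was 5 with the animal as a block, 3 with all 4 groups in 1 fit and 10 without both animal 2 libraries. KRT10 was at 9291 to 25670 CPM (median 17815) in day 0 skin and 9809 to 34546 CPM (median 20723) at the edge, and KRT1, its partner, at 6562 to 21345 CPM (median 13415) and 5595 to 22793 CPM (median 18356). These 2 keratins overlapped between groups and were not called (adjusted p = 0.538 and 0.594). KRT77, a suprabasal type II keratin, went the other way, from 731 to 1653 CPM (median 1106) in day 0 skin to 93.3 to 224 CPM (median 127) at the edge (log2 fold change -3.09 ± 0.29 (SE), adjusted p = 5.24e-05), with no overlap. KRT78 (log2 fold change 3.39), a keratin of stratified epithelia, and KLK7 (2.28), a protease of corneocyte shedding, rose. Of 20 genes of the basal layer and its anchoring junctions, 7 were higher and 2 lower (median 0.15), and 4 were higher with the animal as a block. KRT5, the basal keratin, was at 6235 to 9878 CPM (median 7953) and 3695 to 10057 CPM (median 8668) and was not called. Of 25 barrier lipid enzymes, 5 were higher and 3 lower, with a median of 0.03. The count of 5 was 3 with the animal as a block and 9 without edge wound C of animal 2. Of 24 cholesterol synthesis genes, 5 were higher and 1 lower, and 3 were higher with the block.

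Most hair follicle genes were lower at the edge. Of 37 tested, 0 were higher and 29 lower, with a median log2 fold change of -5.53. Only 21 of the list passed the filter on low counts against the day 7 edge. Some of the 37 thus passed only through day 0 skin and could hardly come out higher at the edge. The count lower was 5 with the animal as a block, 11 when animal 1 was left out of the edge group and 36 without both animal 2 libraries. KRTAP3-3, a keratin-associated protein of the hair shaft, was at 1.8 to 1913 CPM (median 1553) in day 0 skin and 0 to 0.559 CPM (median 0.134) at the edge. KRTAP10-6, another of these proteins whose name several near-copies in the table share, was at 0.265 to 532 CPM (median 326) and 0 to 0.129 CPM (median 0.0231). The hair keratin KRT40, on the same contig as KRTAP3-3, was at 0.902 to 170.4 CPM (median 92.8) and 0 to 0.818 CPM (median 0.0231). The lowest day 0 value of KRTAP3-3, of KRTAP10-6 and of KRT40 came from animal 2, and the other day 0 samples lay far above the edge. The highest edge value of KRT40, 0.818 CPM, came from edge wound C of animal 2. KRT84, a further hair and nail keratin, was at 0.478 to 218 CPM (median 6.01) and 0 to 0.415 CPM (median 0.108). LHX2, a transcription factor of follicle stem cells, had a log2 fold change of -4.30, and LGR5, a receptor of follicle stem cells, one of -3.96.

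Gland genes followed in the same direction. Of 20 sebaceous and sweat gland genes, 2 were higher and 12 lower (median -2.14). AWAT2, a wax ester synthase of sebaceous glands, was at 1.1 to 1.76 CPM (median 1.23) in day 0 skin and 0 to 0.274 CPM (median 0) at the edge, low in both. KRT79, a keratin of the follicle infundibulum and sebaceous duct, was at 50.3 to 142 CPM (median 101) and 2.02 to 25.4 CPM (median 8.73) (log2 fold change -3.36 ± 0.47 (SE), adjusted p = 5.41e-04). The simple-epithelial keratins KRT7 and KRT18 had log2 fold changes of -2.94 and -3.04. FOXA1, a transcription factor of sweat glands, had one of -2.89. Of the 2 genes that rose, CA2, a carbonic anhydrase, had one of 1.48. CLDN8, a tight junction protein, was selected by the rule that required no overlap. It was at 25.1 to 62.9 CPM (median 37.7) and 0 to 4.03 CPM (median 1.75) (log2 fold change -4.51 ± 0.35 (SE), adjusted p = 1.82e-05).

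**Figure D3:**
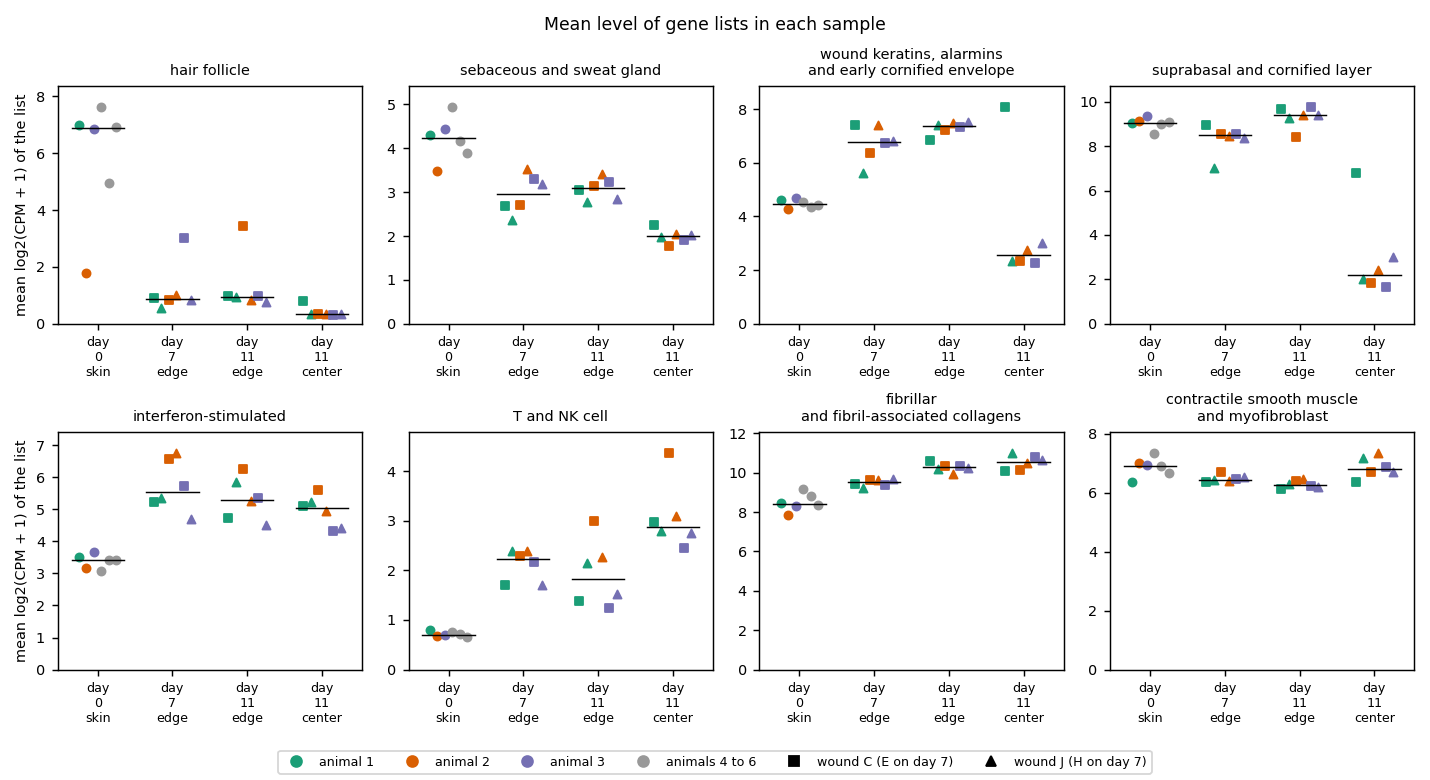
Mean log2(CPM + 1) over 8 gene lists in each sample of day 0 skin, day 7 edge, day 11 edge and day 11 center, with a bar at the median of 6 samples. Colour gives the animal and shape the wound. Day 0 skin of animal 2 and edge wound C of animal 2 stand apart on the hair follicle list, and center wound C of animal 1 on the epidermal lists.

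Most members of both collagen lists were higher at the edge. Of 12 fibrillar and fibril-associated collagens, 8 were higher and 1 lower, with a median log2 fold change of 2.46. COL11A1, a minor fibrillar collagen, was at 6 to 43.9 CPM (median 16.4) in day 0 skin and 109 to 296 CPM (median 275) at the edge (log2 fold change 3.55 ± 0.48 (SE), adjusted p = 4.55e-04), with no overlap. COL5A1, which nucleates collagen fibrils, had a log2 fold change of 2.63, and COL12A1, which binds to their surface, one of 2.41. The most abundant collagens were not called. COL1A1 was at 11445 to 45506 CPM (median 18662) in day 0 skin and 36273 to 48195 CPM (median 40031) at the edge (adjusted p = 0.127). COL3A1 was at 12979 to 38362 CPM (median 19970) and 28855 to 44592 CPM (median 34159) (adjusted p = 0.19), and COL1A2 had an adjusted p of 0.473. The day 0 samples spread widely for COL1A1, and the highest of them reached into the edge range. COL14A1, a fibril-associated collagen of mature dermis, had a log2 fold change of -0.84 (adjusted p = 0.0269), and no collagen of this list was lower with the animal as a block. Of 18 other collagens, 10 were higher and 2 lower (median 1.00).

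Most enzymes that modify and crosslink collagen rose. Of 25 genes for collagen processing and crosslinking, 19 were higher and 2 lower (median 1.37). LOXL2, a lysyl oxidase that starts crosslinks, was at 25.9 to 66.1 CPM (median 38) in day 0 skin and 266 to 517 CPM (median 346) at the edge (log2 fold change 3.10 ± 0.25 (SE), adjusted p = 2.50e-05). PLOD2, a lysyl hydroxylase, was at 7.7 to 11.8 CPM (median 9.88) and 44.7 to 113 CPM (median 74.4) (log2 fold change 2.95 ± 0.14 (SE), adjusted p = 2.21e-06). P4HA3, a prolyl 4-hydroxylase subunit, had a log2 fold change of 3.06. None of the 6 edge values of LOXL2 or PLOD2 fell into the day 0 range. P3H2, a prolyl 3-hydroxylase, went down, with -1.51.

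Most of the provisional matrix genes rose. Of 23 matricellular and provisional matrix genes, 14 were higher and 3 lower (median 1.70). TNC, the tenascin of healing and developing tissue, was at 26.5 to 59.4 CPM (median 41.8) in day 0 skin and 1112 to 3133 CPM (median 1363) at the edge (log2 fold change 5.32 ± 0.26 (SE), adjusted p = 3.02e-06), with a wide gap between groups. TNN, another tenascin, had a log2 fold change of 4.12. CTHRC1, a secreted protein of activated fibroblasts, had one of 3.08, TGFBI one of 3.06 and FN1, fibronectin, one of 1.71. POSTN, periostin, was at 2718 to 6356 CPM (median 3452) and 2756 to 6020 CPM (median 3324) and was not called (adjusted p = 0.799). SPARC (adjusted p = 0.547) and CCN2 (adjusted p = 0.994) were also not called, and SPARCL1, a relative of SPARC in resting stroma, had a log2 fold change of -1.80 (adjusted p = 1.34e-04).

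Small leucine-rich proteoglycans, which bind collagen and set fibril width, went both ways. Of 11 tested, 5 were higher and 4 lower (median -0.41). ASPN, asporin, was at 33.6 to 119 CPM (median 82) in day 0 skin and 578 to 1280 CPM (median 953) at the edge (log2 fold change 3.57 ± 0.38 (SE), adjusted p = 1.23e-04). FMOD, fibromodulin, had a log2 fold change of 2.65, BGN, biglycan, one of 2.43 and LUM, lumican, one of 1.91. KERA, keratocan, was at 31.5 to 172 CPM (median 91) and 1.78 to 12.9 CPM (median 3.24) (log2 fold change -4.49 ± 0.56 (SE), adjusted p = 2.85e-04), and OGN, osteoglycin, had a log2 fold change of -1.64. The groups did not overlap for ASPN, while KERA was selected by the rule that required no overlap. Of 16 elastic fiber genes, 6 were higher and 6 lower (median 0.47). ELN, elastin itself, was at 323 to 767 CPM (median 396) and 206 to 424 CPM (median 234) (log2 fold change -0.83 ± 0.28 (SE), adjusted p = 0.0405), LTBP4, needed for elastic fiber assembly, had -1.61, and the microfibril genes FBN1 and EMILIN1 had 1.63 and 2.56.

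Most matrix-degrading enzymes rose. Of 24 metalloproteinases and their inhibitors, 16 were higher and 2 lower (median 1.86), and 16 were higher under each alternative fit and with each animal left out. MMP9, a gelatinase, was at 2.29 to 5.36 CPM (median 2.97) in day 0 skin and 138 to 471 CPM (median 232) at the edge (log2 fold change 6.34 ± 0.27 (SE), adjusted p = 1.30e-06). MMP1, interstitial collagenase, was at 0.288 to 0.584 CPM (median 0.5) and 21.2 to 84.1 CPM (median 31.1) (log2 fold change 6.40 ± 0.34 (SE), adjusted p = 3.02e-06). Neutrophils also make MMP9, and the part of such cells in its level was not tested. MMP13, a further collagenase, was at 0 to 0.587 CPM (median 0.41) and 16.5 to 38.5 CPM (median 21.5) (log2 fold change 6.04 ± 0.48 (SE), adjusted p = 2.16e-05). The day 0 values of these 3 enzymes all lay below the edge values. ADAM12, a sheddase of activated mesenchyme, had a log2 fold change of 5.23. The broadly made MMP2 and its activator MMP14 had 1.86 and 2.02, and TIMP1, the inhibitor, had 1.86.

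Most contractile genes were lower or not called. Of 18 genes of smooth muscle and myofibroblasts, 2 were higher and 9 lower (median -0.58), and 5 were lower with the animal as a block. ACTG2, an actin of smooth muscle, was at 109 to 526 CPM (median 332) in day 0 skin and 20.9 to 64.8 CPM (median 30.2) at the edge (log2 fold change -3.16 ± 0.51 (SE), adjusted p = 0.00123), with no overlap. MYH11, smooth muscle myosin, had a log2 fold change of -2.37, CNN1, calponin, one of -2.25 and DES, desmin, one of -2.14. ACTA2, the actin that marks myofibroblasts as well as smooth muscle, was at 285 to 602 CPM (median 384) and 243 to 343 CPM (median 279) and was not called (adjusted p = 0.0936). TAGLN, a further actin-binding protein of both cell types, was not called either (log2 fold change -0.09). The 2 that rose were PDLIM7 (1.53) and CALD1 (0.75). Of 14 skeletal muscle genes, 0 were higher and 6 lower (3 when animal 1 was left out of the edge group), CKM, muscle creatine kinase, among them at 3.01 to 12.4 CPM (median 5.28) and 0.389 to 0.928 CPM (median 0.622).

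Dermal fibroblast genes split. Of 28 dermal fibroblast identity genes, 6 were higher and 8 lower (median -0.18). SCARA5, a ferritin receptor of adventitial and reticular fibroblasts, was at 75.3 to 184 CPM (median 88.1) in day 0 skin and 2.67 to 8.31 CPM (median 6.46) at the edge (log2 fold change -4.08 ± 0.36 (SE), adjusted p = 4.12e-05). CLEC3B, tetranectin, was at 243 to 536 CPM (median 290.2) and 29.2 to 121 CPM (median 54.4) (log2 fold change -2.35 ± 0.28 (SE), adjusted p = 2.23e-04). PI16, a marker of adventitial fibroblasts, had a log2 fold change of -2.72 and LEPR, the leptin receptor, one of -4.44. The groups stayed apart for SCARA5 and CLEC3B in all samples. The growth factor receptor PDGFRA (1.45) and the homeobox genes PRRX2 (1.57) and EN1 (1.34) rose.

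Some ligands and inhibitors of the growth factor pathways rose and others fell. Of 30 genes of the TGF-beta, activin and BMP pathway, 11 were higher and 6 lower (median 0.28), and 3 were lower with the animal as a block. INHBA, the activin A subunit, was at 1.96 to 3.9 CPM (median 3.49) in day 0 skin and 19.9 to 43.4 CPM (median 34.8) at the edge (log2 fold change 3.38 ± 0.19 (SE), adjusted p = 3.02e-06). TGFB1 had a log2 fold change of 1.93, while the ligands BMP4 and BMP2 had -1.80 and -1.56 and FST, the activin inhibitor follistatin, had -1.93. Of 35 WNT pathway genes, 6 were higher and 8 lower (median 0.00), shares near those over all genes, and 15 were lower with each wound as a sample. SFRP2, a secreted WNT binder of fibroblasts, was at 7.59 to 25.3 CPM (median 14.6) and 142 to 391 CPM (median 251) (log2 fold change 3.97 ± 0.35 (SE), adjusted p = 4.23e-05). The ligand WNT5A had 1.21, the inhibitor DKK2 had -2.03, and AXIN2, a common target of the pathway, was not called (log2 fold change -0.01).

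Interferon-stimulated genes rose nearly as a whole list. Of 28 tested, 27 were higher and 0 lower (median 2.21), and the count was 22 with the animal as a block. ISG15, a ubiquitin-like protein, was at 8.97 to 24.8 CPM (median 15.9) in day 0 skin and 102 to 498 CPM (median 246) at the edge (log2 fold change 4.04 ± 0.26 (SE), adjusted p = 7.82e-06). OASL, an RNA sensor relative, was at 0 to 0.795 CPM (median 0.26) and 14.6 to 56.9 CPM (median 29.9) (log2 fold change 6.66 ± 0.58 (SE), adjusted p = 3.98e-05). CXCL10, a T cell attractant, was at 1.02 to 4.49 CPM (median 3.34) and 7.01 to 528 CPM (median 30.9) (log2 fold change 5.31 ± 0.82 (SE), adjusted p = 9.33e-04). Every edge value of ISG15 was above every day 0 value. The antiviral GTPase MX1 had a log2 fold change of 2.57. Of 11 antigen presentation genes tested, out of 23 listed, 9 were higher and 0 lower (median 1.12). The list of T cell genes below and the interferon list were measured in the same tissue, and the part of infiltrating cells in the interferon genes was not tested.

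Lymphocyte genes were higher or not called. Of 26 T and NK cell genes, 20 were higher and 0 lower (median 2.64). CD3E, a subunit of the T cell receptor complex, was at 0.83 to 1.82 CPM (median 1.27) in day 0 skin and 4.49 to 27 CPM (median 9.17) at the edge (log2 fold change 3.10 ± 0.41 (SE), adjusted p = 4.18e-04). CD4 had a log2 fold change of 3.48, and CD8A one of 2.58. ICOS, a costimulatory receptor, was at 0 to 0.195 CPM (median 0.0267) and 1.04 to 11.4 CPM (median 2.96). The mean of the list was 3.00 in edge wound C of animal 2 and 1.23 to 2.28 in the other 5 edge samples. Of 15 B and plasma cell genes, 5 were higher and 0 lower (median 1.45). JCHAIN, which joins IgA and IgM chains, was at 4.06 to 12 CPM (median 6.54) and 116 to 361 CPM (median 184) (log2 fold change 4.81 ± 0.33 (SE), adjusted p = 9.63e-06), with no overlap. The plasma cell gene MZB1 had 3.95 and the B cell coactivator POU2AF1 had 4.63, while the B cell surface gene MS4A1 (adjusted p = 0.231) was not called. Of 16 genes with an immunoglobulin name, a group formed after the values were seen, 13 were higher and 0 lower (median 5.21). IGHA2, the IgA heavy chain, was at 1.71 to 20.6 CPM (median 6.21) and 283 to 983 CPM (median 492) (log2 fold change 5.85 ± 0.70 (SE), adjusted p = 2.37e-04). Immunoglobulin genes are near copies of one another, so the split of reads among them is uncertain.

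Most myeloid genes rose as well. Of 31 macrophage and monocyte genes, 22 were higher and 0 lower (median 1.27), and the lowest count on leaving out 1 animal was 16. MSR1, a scavenger receptor, was at 0.748 to 1.85 CPM (median 1.56) in day 0 skin and 10.8 to 22.3 CPM (median 18.8) at the edge (log2 fold change 3.60 ± 0.27 (SE), adjusted p = 1.47e-05). TREM2, a lipid receptor of tissue macrophages, had a log2 fold change of 3.41 and CTSS, cathepsin S, one of 2.27. CSF1R, the receptor that keeps macrophages alive, missed the threshold (adjusted p = 0.0563). Of 19 neutrophil and inflammatory chemokine genes, 13 were higher and 2 lower (median 2.02), and the block left 9 higher. IL1R2, a decoy receptor for interleukin 1, was among the lower ones with a log2 fold change of -1.20. Of 16 genes of dendritic, Langerhans and mast cells, 9 were higher and 0 lower (median 1.41).

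Most blood vessel genes rose by small steps. Of 33 blood vessel endothelium genes, 24 were higher and 0 lower (median 0.90). SELP, the leukocyte-binding P-selectin, was at 0.371 to 2.47 CPM (median 1.03) in day 0 skin and 6.96 to 14 CPM (median 9.06) at the edge (log2 fold change 3.00 ± 0.41 (SE), adjusted p = 5.11e-04). PLVAP, a protein of fenestrated vessels, had a log2 fold change of 1.55 and PECAM1, a junction protein of all endothelium, one of 0.87. Of 11 lymphatic genes, 5 were higher and 1 lower (median 0.66), and 3 were higher when animal 1 was left out of the edge group. MMRN1, a lymphatic endothelial protein, had a log2 fold change of 2.15. The 6 erythrocyte genes gave 0 calls in either direction by edgeR.

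Of 15 Schwann cell and nerve genes, 3 were higher and 8 lower (median -0.66), against 3 higher and 3 lower with the animal as a block. SOX10, a transcription factor of Schwann cells and melanocytes, was at 4.97 to 10.1 CPM (median 7.95) in day 0 skin and 0.479 to 3.71 CPM (median 1.67) at the edge (log2 fold change -2.04 ± 0.36 (SE), adjusted p = 0.00204). PMP2, a fatty acid binder of myelin selected by rule, was at 0.584 to 31.8 CPM (median 13.1) and 0 to 0.43 CPM (median 0.0231). The groups did not overlap for SOX10, while PMP2 was selected by a rule that required no overlap. The nearest PMP2 values were 0.584 CPM in day 0 skin of animal 2 and 0.430 CPM in edge wound C of animal 2. These libraries also stood apart on the hair follicle list, and whether PMP2 followed follicle or nerve was not tested. NES, nestin, was among the 3 that rose (2.40). Of 8 melanocyte genes, 1 was higher and 3 lower (median -0.43).

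Of 41 cell cycle and mitosis genes, 19 were higher and 1 lower (median 0.43), against 10 higher without edge wound C of animal 2. MKI67, the proliferation antigen, was at 28.1 to 55.9 CPM (median 42.3) in day 0 skin and 49.1 to 91.2 CPM (median 71.8) at the edge (log2 fold change 0.69 ± 0.19 (SE), adjusted p = 0.0185). BIRC5, survivin, had a log2 fold change of 0.99 and CCNE1, cyclin E1, one of 1.12, while CCND1, cyclin D1, had -1.18. Of 23 hypoxia and glycolysis genes, 13 were higher and 1 lower (median 0.70). Of 30 immediate early and stress genes, 7 were higher and 8 lower (median -0.09). The count of 8 was 4 with the animal as a block and 3 when animal 3 was left out of the edge group. FOS (-1.60) and EGR1 (-1.32), which respond within minutes of a stimulus, were lower, and FOSL1 (2.73), a late member of the FOS family active at wound margins, was higher. Of 19 clock genes, 2 were higher and 5 lower (2 lower when animal 2 was left out of the edge group), with HLF at -1.08 and NPAS2 at 0.85, and the labels give no hour of sampling.

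Of 26 adipocyte genes, 1 was higher and 3 lower (median 0.17). The count of 3 was 1 when animal 1 was left out of the edge group. GPAM, an enzyme of triglyceride synthesis, had a log2 fold change of -1.02. Housekeeping genes, often taken as a stable reference, were not level between the groups. The mean log2(CPM + 1) of their list was 7.10 to 7.22 in day 0 skin and 7.43 to 7.63 at the edge, with no overlap. Of 13 tested, 7 were higher and 1 lower (median 0.32), 4 were higher with library totals in place of TMM factors, and 2 were higher with the animal as a block and 4 without animal 3 at the edge. GUSB, a lysosomal enzyme, had a log2 fold change of 1.44. Further genes selected by rule among those that fell were TDO2, a tryptophan-degrading enzyme, at 29.7 to 114 CPM (median 72.2) in day 0 skin and 0 to 6.54 CPM (median 2.05) at the edge (log2 fold change -4.58 ± 0.54 (SE), adjusted p = 2.01e-04), and CBR2, a carbonyl reductase, at 2.82 to 21.6 CPM (median 13.8) and 0.065 to 1.55 CPM (median 0.432). TPD52L1 was at 1.54 to 56.8 CPM (median 20.8) and 0.0779 to 0.818 CPM (median 0.303), CH1 at 5.68 to 211 CPM (median 103) and 0 to 3.5 CPM (median 1.7), and NXPE2 at 5.77 to 76.8 CPM (median 34.2) and 0 to 3.83 CPM (median 1.25). The lowest day 0 value of TPD52L1 came from animal 2, and the next was 12.35 CPM in animal 3.

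HOX genes, which keep a record of position along the body axis, changed in both directions. Of 29 tested, 8 were higher and 8 lower (median 0.42), and 4 were higher without both animal 2 libraries. Leaving out animal 1 of the edge group gave 3 higher, leaving out animal 2 gave 3 lower, and the animal as a block gave 5 higher and 4 lower. Of the 20 genes of groups 1 to 8, which act toward the head, 3 were higher and 7 lower. Of the 9 genes of groups 9 to 13, which act toward the tail, 5 were higher and 1 lower. Within the day 11 edge, HOXA9 was at 8.48 to 10.7 CPM in the 3 samples of wound C and 2.53 to 5.30 CPM in the 3 of wound J. HOXA11 was at 1.12 to 2.49 CPM in wound C and 0 to 0.312 CPM in wound J. Wound C was above wound J in all 3 animals for 5 of the 9 genes of groups 9 to 13 and for 6 of the 20 genes of groups 1 to 8. How many of all genes tested show this order was not counted. In the center of the same wounds, HOXA6, HOXA9, HOXA11 and HOXC10 kept this order in 3 animals, and HOXA7 and HOXC13 in 2. HOXB2, HOXB6, HOXD4 and HOXD10 kept it in 1 animal and HOXB7 in 0. Since the back position of the day 0 samples is not given, wounding and position cannot be told apart for these genes.

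**Figure D4:**
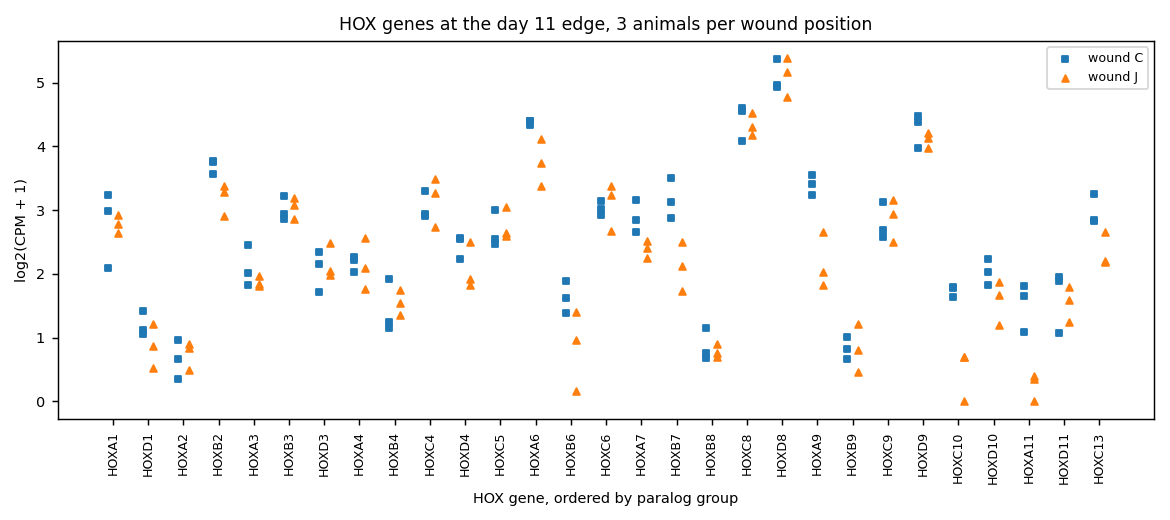
log2(CPM + 1) of the 29 tested HOX genes at the day 11 edge, ordered by paralog group, with 3 samples of wound C (blue squares) and 3 of wound J (orange triangles). HOXA9, HOXC10 and HOXA11 lie higher in wound C of all 3 animals.

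The same animals' wound edge on day 7 was compared to place day 11 in time. The day 7 samples came from wounds E and H and the day 11 samples from wounds C and J. Day and the wound's place on the back therefore cannot be told apart here. Some late epidermal genes were higher and some chemokine and cell cycle genes lower on day 11, and few of these calls held with the animal as a block. Of 15780 genes tested, 281 (1.78%) were higher and 217 (1.38%) lower on day 11 than on day 7, and these counts were 0 and 0 when animal 1 was left out of the day 11 group (1912 and 1954 genes had an unadjusted p below 0.05 with all animals). With the animal as a block they were 14 and 10. With library totals in place of TMM factors they were 226 and 398, so the share of calls that were higher went from 56.4% to 36.2%. Of 28 suprabasal genes 13 were higher (1 with the block), and of 25 barrier lipid enzymes 14 were higher (0 with the block). PADI1, which modifies keratin and filaggrin in the upper epidermis, was at 0.322 to 9.08 CPM (median 5.25) on day 7 and 13.8 to 90.9 CPM (median 40.1) on day 11 (log2 fold change 3.17 ± 0.54 (SE), adjusted p = 0.0398). COL11A1 was at 13.6 to 59.6 CPM (median 29.3) on day 7 (log2 fold change 2.93 ± 0.19 (SE), adjusted p = 0.0122), and IGHA2 at 53.2 to 144 CPM (median 104) (log2 fold change 2.48 ± 0.40 (SE), adjusted p = 0.0379). TMPRSS11A, a further protease of that family (2.00), and ACP7, an acid phosphatase (2.14), completed the higher side. On the lower side, CXCL8 had 187 to 3396 CPM (median 584) on day 7 (log2 fold change -5.08 ± 0.73 (SE), adjusted p = 0.0366), and the chemokine CCL3 a log2 fold change of -4.97. A gene named GPR84 by its protein match alone, which the table classes as a pseudogene, had -5.46, G0S2, a lipase inhibitor, had -4.51 and SDS, serine dehydratase, had -4.77. Of 22 neutrophil and chemokine genes 9 were lower (2 with the block), and of 41 cell cycle genes 21 were lower (0 with the block).

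Across the sampled days the members took different courses, given here as medians with no test. Each day was sampled from other wounds of these animals, so day and wound site cannot be told apart. S100A9 was at 2.24 CPM in day 0 skin and 573 CPM 1 day after wounding, and at 2308 CPM on day 11 before 25.9 CPM on day 15. KRT6C was at 7871 CPM on day 1 and 13292 CPM on day 11, and then at 815 CPM on day 15, below the 877 CPM of day 0. MMP1 was highest on day 1 with 595 CPM and was at 31.1 CPM on day 11. COL11A1 started below its day 0 level, with 0.952 CPM on day 1. It was at 275 CPM on day 11, 129 CPM on day 15 and 313 CPM on day 21. IGHA2 was higher on each sampled day up to day 11, from 22.3 CPM on day 1 to 492 CPM. SCARA5 was lowest on day 11 with 6.46 CPM, and ELN, at 234 CPM on day 11, was at 760 CPM on day 21 against 396 CPM in day 0 skin. The medians of S100A9 and KRT6C were highest on day 11 but did not rise steadily. On days 3 and 5 S100A9 was at 375 and 313 CPM and KRT6C at 6609 and 7362 CPM, below their day 1 medians.

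**Figure D5:**
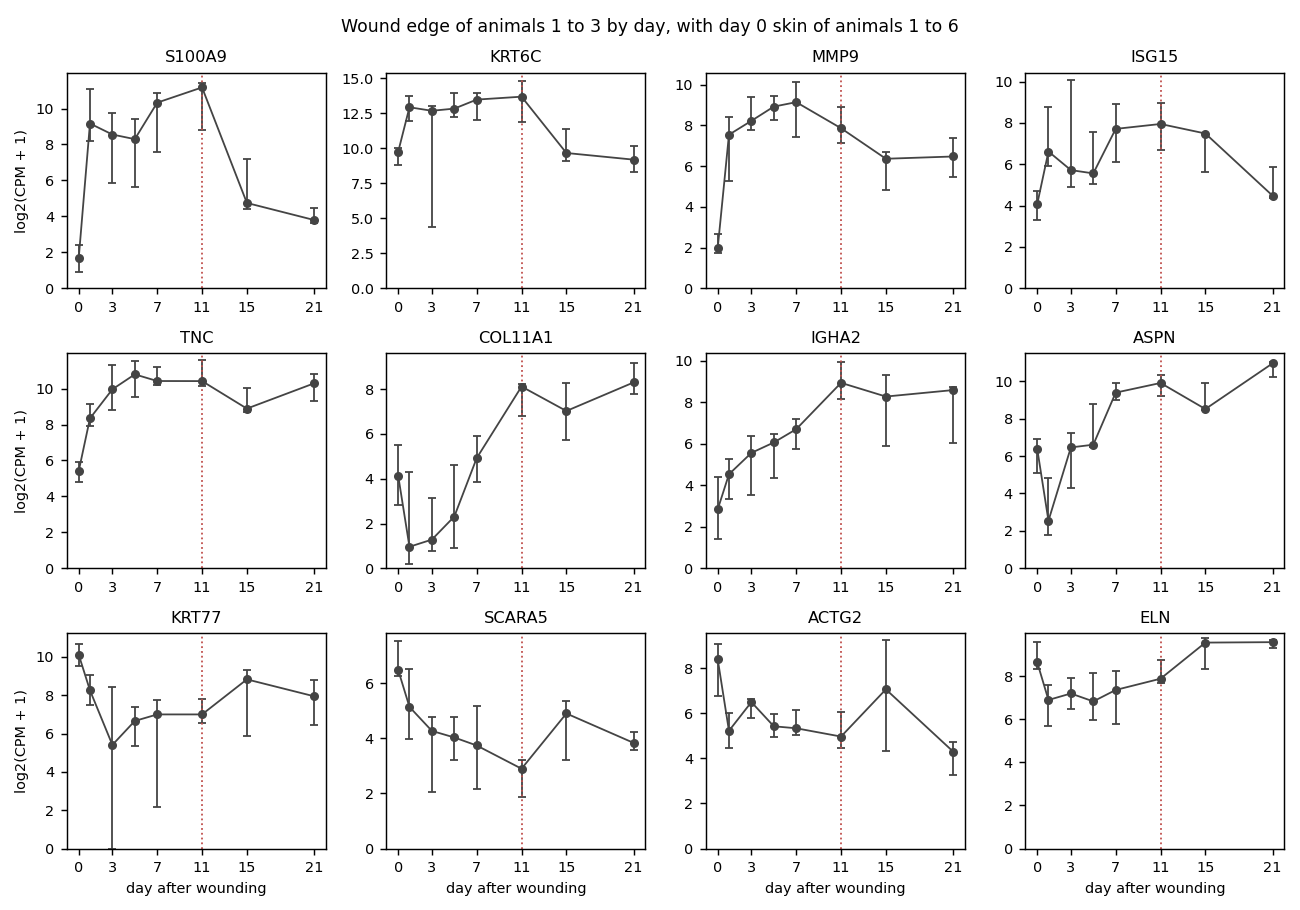
log2(CPM + 1) of 12 genes at the wound edge of animals 1 to 3 by day after wounding, with day 0 skin of animals 1 to 6. Points are medians of 6 samples (3 on days 15 and 21), whiskers run from the lowest to the highest sample, and the dotted line marks day 11. S100A9 and KRT6C are far lower on day 15 than on day 11. The medians of COL11A1 and ASPN are lower on day 15 than on day 11 but stay above day 0 to day 21.

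The center of the same wounds was sampled on day 11 as well. Of 15855 genes tested, 2088 (13.2%) were higher and 1987 (12.5%) lower at the edge than in the center. These counts were 749 and 636 when animal 1 was left out of the edge group, and 168 and 98 with wound C only. The main fit did not pair edge and center of an animal, and with the animal as a block they were 2437 and 2547. Center wound C of animal 1 stood apart, with a mean log2(CPM + 1) of 8.07 over the wound keratin list against 2.28 to 3.01 in the other 5 center samples. Of 28 suprabasal genes, 14 were higher at the edge, 27 without that library and 9 when animal 1 was left out of the edge group. Of 18 wound keratin and alarmin genes, 1 was higher at the edge, and 16 without it. KRT2, a keratin of the upper epidermis, was at 6.63 to 27.5 CPM (median 9.85) in the center and 3095 to 9174 CPM (median 6141) at the edge (log2 fold change 8.97 ± 0.53 (SE), adjusted p = 0.00222). KRT79 was at 0 to 0.0728 CPM (median 0) in the center, against 2.02 to 25.4 CPM (median 8.73) at the edge. C5orf46 was at 0 to 0.39 CPM (median 0.0342) and 15.7 to 127 CPM (median 39). Both were near the detection limit in the center. FLG2, a filaggrin relative that 2 genes carry as a name, was selected by rule with both.

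Many macrophage, vessel, metalloproteinase and contractile genes were lower at the edge than in the center. Of 31 macrophage genes 18 were lower and of 33 blood vessel genes 19 were lower. Of 24 metalloproteinases and inhibitors 13 were lower, and of 18 contractile genes 10 were lower. When animal 1 was left out of the edge group these counts were 10 macrophage, 6 vessel, 6 metalloproteinase and 5 contractile genes. With the animal as a block they were 24, 21, 16 and 10. MMP12, macrophage elastase, was at 155 to 1219 CPM (median 320.5) in the center and 6.36 to 30 CPM (median 8.23) at the edge (log2 fold change -4.88 ± 0.61 (SE), adjusted p = 0.00601). SPP1, osteopontin, was at 388 to 3994 CPM (median 1801) and 40.7 to 172 CPM (median 85.6) (log2 fold change -4.32 ± 0.45 (SE), adjusted p = 0.00463). The genes OCSTAMP (-4.27) and SIGLEC15 (-4.15), both of multinucleated macrophages and osteoclasts, and TM4SF19 (-4.22) were lower too. Of 31 T and NK cell genes 2 were lower at the edge, and 26 with the animal as a block. The 12 fibrillar and fibril-associated collagens gave 0 higher by edgeR (0 by DESeq2 and 0 with an unadjusted p below 0.05) and 1 lower. The 41 cell cycle genes gave 0 higher and 0 lower by edgeR, where DESeq2 called 2 lower and 2 had an unadjusted p below 0.05. The count lower depended on the animals kept, and leaving out 1 animal gave 0 to 22.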

How the data were processed

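RNA was sequenced from pig skin and wound biopsies. The authors deposited raw gene counts without normalization and FPKM, which scale counts by gene length and library total, and the FPKM were used here only for the per-length medians of 2 keratins. The aligner, the counting tool, its use of strand and the genome build are not given in the sources used here, so overlapping genes and near copies may share reads. Gene names came from the name column of the deposited table (12300 genes) or its protein match (9387 genes), and 8774 of 30461 genes stayed unnamed.

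Groups follow the day and location that the labels give. Counts of the 2 wounds of an animal were summed and tested by quasi-likelihood in edgeR 4.0.16 under R 4.3.3, after filterByExpr (at least 10 counts, total 15) and TMM scaling, with calls at a Benjamini-Hochberg adjusted p below 0.05. SE is the absolute log2 fold change over the square root of F. CPM were TMM-normalised over all 150 samples, and list levels are means of log2(CPM + 1). Animals numbered alike are the same animals, so the block fit pairs day 11 with day 0 of animals 1 to 3. Deviations of the same animal correlated with r of -0.137 to 0.090 for day 0, 0.121 to 0.273 for day 7 and 0.211 to 0.452 for the center. The labels give no sequencing batch, and p-values measure the spread between these animals only.

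The 38 gene lists (869 of 958 symbols found) and all comparisons were chosen with earlier results of these data known. Some lists were only partly found, with 12 of 23 symbols for antigen presentation and 19 of 30 for wound keratins and alarmins. For dendritic, Langerhans and mast cells 16 of 24 symbols were found. Of the symbols, 13 were treated as not found because the name and the protein match disagree, and 4 older names were added, both after values were seen. Named genes were the 12 with a symbol that rose most and the 12 that fell most by log2 fold change among called genes with no overlap and a mean of at least 10 CPM in the higher group, 5 each way for day 7 and the center, and list members. On simulated counts of the day 11 edge against day 0 skin (15577 genes, 200 changed), edgeR found 51% of 2-fold and 87% of 4-fold changes, and 5.479% of its calls were false. The simulated spread followed a trend over expression level, with no outlying library. Far fewer genes changed than were called in the data, so these rates need not hold for the real counts. Alternatives were DESeq2 1.42.0 (16.667% false in the same simulation), RLE factors, library totals, no low-count filter, each wound as a sample, 1 wound only, the animal as a block, day 0 of animals 1 to 3 only, all 4 groups in 1 fit, a 2-fold minimum and each animal left out. Leaving out edge wound C of animal 2, alone or with its day 0 skin, and center wound C of animal 1 were alternatives chosen after seeing the data. Depth bounds what can be seen at 3 counts per library, which covers counting error only. Figures and tables used Python 3.11.15, numpy 2.4.6, pandas 2.3.3, scipy 1.17.1 and matplotlib 3.10.9.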

Additional observations from a re-analysis of the deposited data

Results flagged for a closer look

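Samples far from the rest of their group of 6 were found by Dixon's ratio, the gap to the nearest sample over the whole range, set against its critical value for 6 samples. This marked 12 of the 126 groups of values tested, where about 6.3 would be marked by chance.

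In day 0 skin, animal 2 was lowest for KRTAP3-3 (ratio 0.927), KRTAP10-6 (0.818) and PRSS35 (0.786). On the log2(CPM + 1) scale KRTAP3-3 was at 1.49 in that sample and 10.2 to 10.9 in the other 5. Animal 3 was highest for AOX4 (1.0), where 1 count stood against none in the other libraries, and for CXCL8 (0.663).

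At the day 11 edge, wound C of animal 2 was highest on the hair follicle list (0.924) and for KRT40 (0.875), PMP2 (0.79) and KRTAP3-3 (0.674). It was lowest on the suprabasal and cornified layer list (0.627), with a mean log2(CPM + 1) of 8.42 against 9.25 to 9.75 in the other 5. Wound C of animal 3 was lowest on the lymphatic list (0.722), at 3.83 against 4.18 to 4.31. Wound J of animal 1 was lowest on the Schwann cell and nerve list (0.628), at 3.05 against 3.14 to 3.19.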

How the results depend on the processing

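Of the 491 called genes of the lists and the naming rule, 0 changed direction under any alternative against day 0 skin, and 2 lost their call under DESeq2, 123 with the animal as a block, and 77, 78 and 79 when edge animals 1, 2 and 3 were left out. With all animals kept, counts against day 0 skin outside 1.5 times the main count were 1327 lower genes with the replicate block on the sums, and 1435 higher and 1163 lower with a 2-fold minimum. Leaving out 1 animal gave 2182 to 2928 higher and 1573 to 2790 lower, with the lowest counts without edge animal 2 and edge animal 3. The count lower was 1652, 1766 and 1573 without edge animals 1, 2 and 3, each more than 1.5 times under the main count.

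Edge against center gave 168 higher and 98 lower with wound C only, 3344 and 3623 with each wound as a sample in the block, 3301 lower with each wound as a sample, and 1338 and 941 with a 2-fold minimum. Leaving out 1 animal gave 749 to 2507 higher and 636 to 1951 lower, both lowest without edge animal 1.

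Day 11 against day 7 gave 1141 higher and 908 lower with DESeq2, 786 and 805 with each wound as a sample, 710 and 750 with each wound as a sample in the block, and 14 and 10 with the block on the sums. All 4 groups in 1 fit gave 39 and 100, library totals gave 398 lower, a 2-fold minimum 142 and 91, and the edge without wound C of animal 2 717 and 463. With edgeR wound C only and wound J only gave 0 and 0, with 1241 and 1170 or 974 and 992 genes at an unadjusted p below 0.05. Leaving out 1 animal gave 0 to 735 higher and 0 to 488 lower. The cause of these shifts was not tested. Depth limits statements on genes under 3 counts per library.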
